A study of Pimephales promelas with 270 samples.

Results

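The 200 transcripts described here are those with the largest shifts in fathead minnow larvae kept for 24 h in a low dose of propranolol at the age of 6 days post fertilization. Each was chosen by its low-dose minus control difference, e, in mean log2(CPM + 1), where CPM is a transcript's count scaled to a common library total. Of 34856 transcripts in the table, 17527 had a mean CPM of at least 5 over the libraries of that exposure set. The 100 with the highest e form the upper list and the 100 with the lowest e the lower list. Because the low-dose libraries and controls of this set chose the members, their values there are given as a description. Counts of calls from those libraries are no test of the members.

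The fathead minnow (Pimephales promelas) is a freshwater fish of North America that laboratories keep for testing chemicals. Larvae aged 4, 5 or 6 days spent 6, 24 or 48 h as controls without the drug, in 0.66 mg/l propranolol (the low dose) or in 3.3 mg/l propranolol (the high dose). This gave 27 groups in 9 exposure sets, each set being 1 age and 1 duration, and 266 of 270 labelled samples are in the table. No strain, genotype or sex is labelled, and it is not given if the labelled age refers to the beginning or the end of exposure. The 6-day, 24 h set held 10 control, 9 low-dose and 9 high-dose libraries. The other groups had 10 libraries each, except for 8 controls at 6 days and 48 h, since 4 labelled samples (a low-dose and a high-dose one at 6 days and 24 h, and 2 controls at 6 days and 48 h) were not analysed here. A treatment note repeated on each sample speaks of ethinyl estradiol, but the dose labels, the title and the design text name propranolol and were followed. The labels do not say whether each larva had its own vessel or whether a library came from 1 larva or from several pooled, so single values are given by library, spreads are between libraries, and p-values therefore reflect only how these samples spread, part of which may be technical.

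Propranolol blocks beta-adrenergic receptors, the cell-surface receptors through which adrenaline and noradrenaline raise heart rate and mobilise energy stores. Fish carry the same receptor family, and the drug reaches surface waters through wastewater. Around hatching a fish larva uses up its yolk and matures its gut, muscle and sense organs, so many transcripts change level with age in unexposed larvae. The members carry bare transcript identifiers, none of which matched a gene table, so no gene name, role or sequence can be given and at most 2 identifiers of each list are printed.

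In the upper list, e ran from 0.6223 to 2.53, with a median of 0.75, and 27 members exceeded 1, a doubling of the geometric mean of CPM + 1 and not of mean CPM. In the lower list, e ran from -0.6915 to -1.78, with a median of -0.83, and 27 members were below -1. The median over all 17527 transcripts was 0.036. The cuts fell in an unbroken run of values: the first transcripts outside them had e of 0.6217 and -0.6900. The members were neither rare nor abundant as a class. Their mean CPM in the set ran from 5.14 to 1353 in the upper list (median 17.0) and from 5.09 to 1245 in the lower list (median 19.5), against a median of 17.9 over all 17527. Counts above 0 were found in all 266 libraries for 83 upper and 74 lower members. By identifier number, 12 upper members stood in 5 runs of consecutive numbers and 22 lower members in 9 runs. Whether such neighbours share a gene or reads is not given, so the 200 are not taken as independent measurements.

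Averaged over its members, the upper list stood at 3.92 ± 0.32 log2(CPM + 1) at 6 days and 24 h in controls (SD, n = 10), 4.81 ± 0.22 in the low-dose larvae (n = 9) and 4.45 ± 0.16 in the high-dose larvae (n = 9). The lower list stood at 5.20 ± 0.22 in the controls, 4.27 ± 0.28 in the low-dose larvae and 4.90 ± 0.17 in the high-dose larvae. The 9 low-dose libraries lay between 4.53 and 5.07 in the upper list, all above the controls at 3.47 to 4.39, and between 3.87 and 4.70 in the lower list, all below the controls at 4.87 to 5.45. That separation is what the rule selected. Member by member the groups overlapped nearly everywhere: only 1 upper member had every low-dose library above every control and 2 lower members every low-dose library below every control, where 0.0742% and 0.0856% of all 17527 transcripts did. The fit of this set (edgeR quasi-likelihood test, false discovery rate 0.05) used the libraries that chose the members and is no test of them. That fit called 49 of 99 tested upper members higher and 42 of 100 lower members lower (background 2.76% higher and 3.17% lower). Of the 17527, the shares were 4.07% and 4.5%. The rule brings these member counts about, so nothing is read from them.

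The high-dose larvae of this set did not, for most members, lie further from the controls than the low-dose larvae. For 81 upper and 82 lower members the high-dose mean fell between the low-dose and the control mean, for 15 upper and 5 lower members it lay beyond the low-dose mean, and for 4 upper and 13 lower members it lay on the far side of the controls. Taking the control mean as 0 and the low-dose mean as 1, the median high-dose position was 0.47 in the upper and 0.27 in the lower list. Choosing extremes at the low dose favours this order, and it was not tested.

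Within the low-dose group, replicates 25, 26 and 28 lay nearest the controls in both lists together. Their upper-list means were 4.65, 4.54 and 4.53, and their lower-list means were 4.70, 4.67 and 4.39. The control nearest the low-dose larvae was replicate 13, at 4.39 and 4.87. Library totals of the set ran from 5.37 to 18.64 M counts in the controls, 7.96 to 18.08 M at the low dose and 6.19 to 16.64 M at the high dose (5.37 to 30.96 M over all 266), and no library of the set was among the 21 in the series that correlated poorly with the rest of their group. Without the 5 libraries of the set under 9 M counts, 71 upper and 76 lower members were chosen again. With any 1 low-dose or control library left out, 82 to 90 upper and 81 to 90 lower members were chosen again, and 53 upper and 47 lower members were chosen whichever library was left out.

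**Figure D1:**
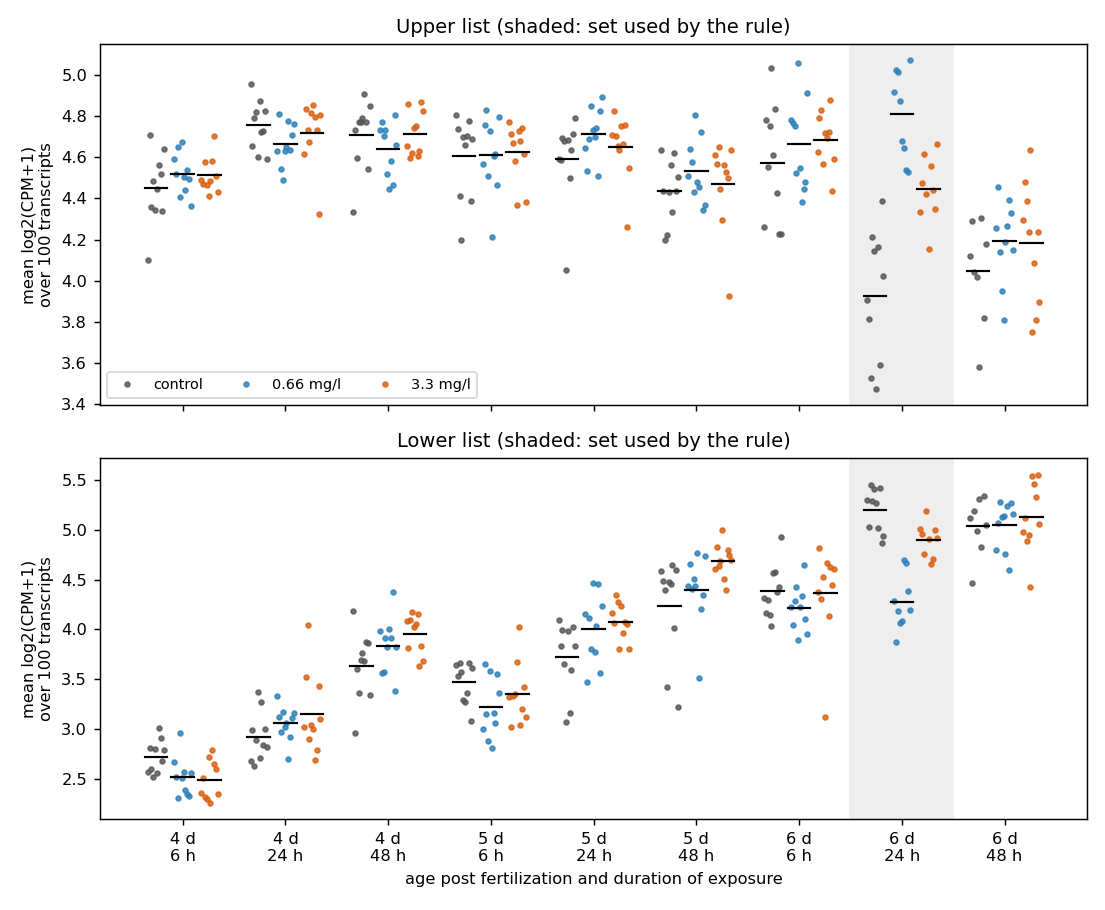
Mean log2(CPM + 1) over the 100 upper-list and the 100 lower-list transcripts in each of 266 libraries (points), by exposure set in order of age and duration and by dose, with group means as bars. In the 6-day, 24 h set the low-dose points of the upper list lie at 4.53 to 5.07, above the controls at 3.47 to 4.39, and the low-dose points of the lower list lie below the controls, whereas in the other 8 sets the doses overlap.

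The members varied more between libraries of 1 group than other transcripts did. Over the control groups of the other 8 sets the median SD of log2(CPM + 1) within a group was 0.46 for upper members and 0.70 for lower members, against 0.25 over all 17527 transcripts. This SD exceeded 1 for 21 upper and 26 lower members, against 0.736% of all transcripts. A large difference between 2 group means is easier to reach for a transcript that varies widely, so a rule on the size of e favours such transcripts. How much of the membership comes from this was not tested. The members moved together only loosely. Over 238 libraries of the other sets, the mean correlation of 2 members around their group means was 0.086 in the upper list, 0.14 in the lower list and -0.037 between the lists, against 0.029 between any 2 of the 17527. The points share library and depth. Each member was also set against the mean of the rest of its list: 14 upper and 29 lower members then had a correlation above 0.5.

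FMt043989, the upper member with the largest e (2.53), was present at up to 200.4 CPM in some libraries and nearly silent in others, in exposed and control groups alike. At 6 days and 24 h the controls held 1.11, 1.49, 1.72, 79.51, 90.25, 1.40, 0.81, 0.50, 2.25 and 34.54 CPM. The low-dose libraries held 110.2, 49.4, 152.3, 37.32, 91.26, 81.89, 1.21, 2.16 and 52.38 CPM, and the high-dose libraries 49.4, 34.01, 1.02, 113.0, 41.29, 40.71, 0.78, 62.02 and 93.87 CPM. Thus 7 of 10 control, 2 of 9 low-dose and 2 of 9 high-dose libraries were under 5 CPM, a limit set after the values were seen, and its e goes with the number of such libraries in each group. Of all 266 libraries, 67 were under 2.5 CPM, 2 lay between 2.5 and 5 CPM, 9 between 5 and 10 CPM and 188 at 10 CPM or more. In the other 8 sets together, 25 of 78 control, 21 of 80 low-dose and 12 of 80 high-dose libraries were under 5 CPM. Neither dose passed the test against control as a mean of those 8 sets, with log2 fold changes of 0.17 ± 0.25 for the low dose (SE; edgeR adjusted p = 0.98) and 0.24 ± 0.25 for the high dose (adjusted p = 0.67). Controls held more of it at 6 than at 4 days, the log2 fold change being 1.90 ± 0.58 (edgeR adjusted p = 0.0061), a call that was lost with limma-voom, at 1.04.

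FMt045902 (e = 1.10) was the upper member with the largest called high-dose change as the mean of the other 8 sets. At 6 days and 24 h the 10 controls ran from 95.05 to 155.5 CPM (median 120.5). The low-dose libraries held 223.5, 119.3, 182.3, 251.3, 159.6, 522.0, 230.7, 631.5 and 323.8 CPM, and the 9 high-dose libraries ran from 419.7 to 815.2 CPM (median 630.8). All high-dose libraries were above all controls, 8 of 9 low-dose libraries were between 159.6 and 631.5 CPM and 1, at 119.3, was within the control range. Low-dose replicates 25 and 28, with 522.0 and 631.5 CPM, were inside the high-dose range and were also 2 of the 3 that lay nearest the controls over the lists.

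In libraries the rule did not use, but whose high-dose change picked it from the list, FMt045902 rose with the high dose once exposure reached 24 h. At 48 h it averaged 259 ± 132, 457 ± 184 and 814 ± 249 CPM in high-dose larvae of 4, 5 and 6 days (SD, n = 10 each), against 69.5 ± 17.3, 91.8 ± 13.1 and 129 ± 19.2 CPM in controls (n = 10, 10 and 8). The ranges of high-dose libraries and controls did not overlap at any age at 48 h. As a mean over ages, the log2 fold change was 0.17 ± 0.10 at 6 h (SE, edgeR adjusted p = 0.76), 1.51 ± 0.13 at 24 h in the 4-day and 5-day sets (adjusted p = 1.4e-21) and 2.29 ± 0.11 at 48 h (adjusted p = 1.4e-50). The high-dose effect at 48 h exceeded that at 6 h by 2.12 ± 0.15 (edgeR adjusted p = 9.7e-30). At the low dose it averaged 228 ± 66.3 CPM at 6 days and 48 h, with 157.0 to 338.1 CPM in 10 libraries against 108.1 to 167.7 CPM in 8 controls, a log2 fold change of 0.81 ± 0.17 that did not pass over all transcripts (edgeR adjusted p = 0.26). In the other 7 sets the low-dose log2 fold change lay between -0.11 and 0.19. Its level also rose with age in controls, by 1.11 ± 0.08 between 4 and 6 days (edgeR adjusted p = 2e-21).

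FMt028942, the lower member with the largest fall (e = -1.78), ran from 46.89 to 178.3 CPM (median 103.1) in 6-day, 24 h controls. The low-dose libraries held 46.21, 9.10, 20.3, 27.23, 22.18, 79.8, 27.49, 85.28 and 11.3 CPM, and the high-dose libraries ran from 18.02 to 109.8 CPM (median 82.97). Low-dose replicates 25 and 28, again, with 79.8 and 85.28 CPM, were inside the control range, and replicate 16, at 46.21 CPM, was just under it. In unexposed larvae this transcript climbed steeply with age. Controls averaged 0.096, 0.286 and 6.98 CPM after 6, 24 and 48 h at 4 days, 2.58, 14.0 and 50.8 CPM at 5 days, 24.4 CPM after 6 h at 6 days and 104 CPM after 48 h at 6 days. The 6-day controls exceeded the 4-day controls by 5.95 ± 0.37 in log2 (SE; edgeR adjusted p = 1e-22), and controls after 48 h exceeded those after 6 h by 4.18 ± 0.28 (adjusted p = 5.3e-21). The low dose gave 0.06 ± 0.26 as a mean of the 8 other sets (edgeR adjusted p = 1.0), and 107 ± 35.3 CPM at 6 days and 48 h (n = 10) against 104 ± 49.0 CPM in controls (n = 8). The high dose went the other way from e: it gave 1.71 ± 0.40 at 24 h (edgeR adjusted p = 0.015) and 0.67 ± 0.23 at 48 h (adjusted p = 0.049). The 48 h call was lost under 4 alternatives, among them leaving out the 4-day set, at 0.42. The 24 h value leans on 1 high-dose library of 4 days, which held 15.34 CPM where the median of its 10 was 0.377 CPM. In the 5-day, 24 h set alone the log2 fold change was 0.38 ± 0.38 (edgeR adjusted p = 0.92), and at 4 days and 24 h the transcript was below the filter on low counts.

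FMt003922 (e = -0.77) was the lower member with the largest called high-dose change as the mean of the other 8 sets. At 6 days and 24 h the controls ran from 16.14 to 53.22 CPM (median 31.35), the low-dose libraries from 10.38 to 39.93 CPM (median 15.9) and the high-dose libraries from 22.59 to 51.29 CPM (median 36.49). Low-dose replicates 26 and 28, at 37.89 and 39.93 CPM, stood apart from the other 7 low-dose libraries, all under 22 CPM. In the other sets, whose high-dose change picked it from the list, the high dose raised it, by 0.55 ± 0.11 in log2 as their mean (SE; edgeR adjusted p = 6.7e-05). By duration this was -0.24 ± 0.18 at 6 h (adjusted p = 0.84), 1.07 ± 0.21 at 24 h (adjusted p = 0.0018) and 0.98 ± 0.17 at 48 h (adjusted p = 4.3e-06). At 24 h it was 0.50 ± 0.37 at 4 days (edgeR adjusted p = 0.94) and 1.62 ± 0.30 at 5 days (adjusted p = 0.014). The 5-day value includes 1 high-dose library at 72.61 CPM, where the median of its group was 17.02 CPM. The controls at 5 days and 24 h were also low, with a median of 7.37 CPM. At that age the control medians were 11.1 CPM after 6 h and 17.3 CPM after 48 h. The high-dose effect at 48 h exceeded that at 6 h by 1.22 ± 0.25 (edgeR adjusted p = 0.00031), a call lost without the 5-day sets at either of those durations, at 1.01 and 1.02. Either omission takes 5-day larvae out of this difference, so these values are not separate checks. The 4-day larvae showed the rise after 48 h, at 29.7 ± 8.97 CPM with the high dose against 12.3 ± 5.67 CPM in controls (n = 10 each), and the low-dose mean of the 8 sets was 0.05 ± 0.11 (adjusted p = 0.99). At the high dose and 48 h, 5-day larvae also passed (1.05 ± 0.22, edgeR adjusted p = 0.0087), but 6-day larvae did not (0.64 ± 0.29, adjusted p = 0.27). In those 6-day larvae the transcript ran from 16.05 to 105.0 CPM at the high dose and from 17.25 to 59.79 CPM in controls. Controls also gained it with age, by 1.59 ± 0.25 between 4 and 6 days (edgeR adjusted p = 1.2e-07).

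**Figure D2:**
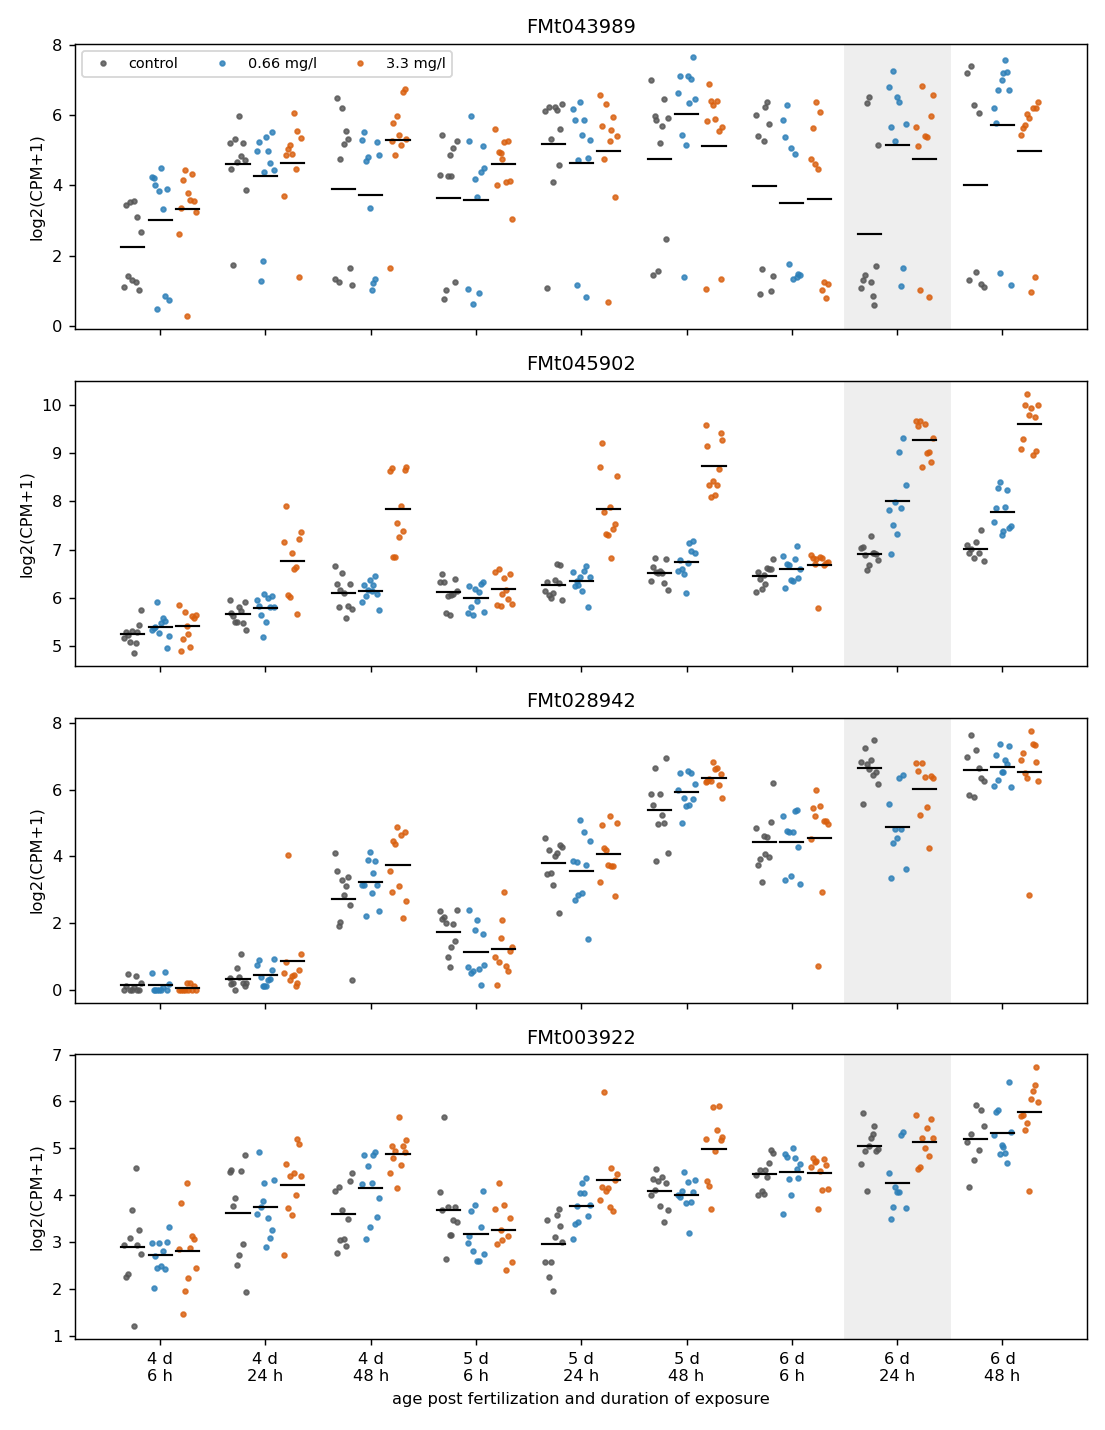
log2(CPM + 1) of the 4 named transcripts in each library (points), by exposure set and dose. FMt043989 is nearly silent in some libraries and present in the others in most groups, FMt045902 separates high-dose libraries from controls at 48 h (2.29 ± 0.11 in log2), and FMt028942 climbs with age at every dose. FMt003922 is higher at the high dose at 48 h as a mean over the ages, but was not called at 6 days.

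Along control age the lists differed, in libraries that had no part in the choice of members. Each set held 1 age and 1 duration. Age and duration among controls therefore cannot be told apart from other differences between sets, also for the named transcripts. The lower list climbed with age: its mean in controls was 2.72, 2.92 and 3.63 log2(CPM + 1) after 6, 24 and 48 h at 4 days, 3.47, 3.72 and 4.23 at 5 days, 4.38 after 6 h at 6 days and 5.03 after 48 h at 6 days. The upper list stayed between 4.44 and 4.76 in the 7 groups other than the late 6-day ones and stood at 4.04 ± 0.24 after 48 h at 6 days (n = 8). The controls of the 6-day, 24 h set, at 3.92 and 5.20, were the lowest of all control groups in the upper list and the highest in the lower list, as the rule favours.

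Tested across the 8 control groups, with the 6-day, 24 h controls left out, 68 lower members were higher and 2 lower at 6 than at 4 days, whereas 20 upper members were higher and 48 lower (edgeR quasi-likelihood test, false discovery rate 0.05). The background was high, with 19.8% of 32382 transcripts higher and 20.6% lower, or 24.3% and 26.8% of the 17527. The median log2 fold change was 1.32 in the lower list and -0.32 in the upper list, against -0.022 over the 17527 from which members were drawn. The rises were large, with a median of 2.82 among the 68 lower members called, of which 52 exceeded 2-fold. Between 48 h and 6 h in controls, 55 lower members were higher and 8 lower, while 14 upper members were higher and 34 lower (background 16.3% and 17.1%, or 20.3% and 22.4% of the 17527), with medians of 0.55 and -0.06.

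At single ages the 2 lists were compared in the same way. After 48 h against 6 h at 4 days, 23 upper members were higher and 9 lower, and 41 lower-list members were higher and 7 lower (background 12.6% and 10.5%, or 16.5% and 14.3% of the 17527). At 5 days, 14 upper members were higher and 28 lower, and 42 lower-list members were higher and 2 lower (background 7.6% and 6.88%, or 10.55% and 9.33% of the 17527). At 6 days, 4 upper members were higher and 47 lower (median log2 fold change -0.51), and 43 lower-list members were higher and 3 lower (median 0.75) (background 9.27% and 9.73%, or 12.85% and 13.77% of the 17527). The 47 falls at 6 days ranged from -3.49 to -0.35. Between 6-day and 4-day controls after 6 h, 28 upper members were higher and 23 lower, and 56 lower-list members were higher and 2 lower (background 14.9% and 14.1%, or 18.7% and 19.1% of the 17527). The 23 upper falls were thus near the share over the 17527. The median log2 fold change there was 0.08 in the upper list and 1.10 in the lower list. Rises thus outnumbered falls among the lower-list members called at each age, whereas among upper members rises were more frequent at 4 days and falls at 5 and 6 days. These single-age comparisons were added after the data were seen.

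**Figure D3:**
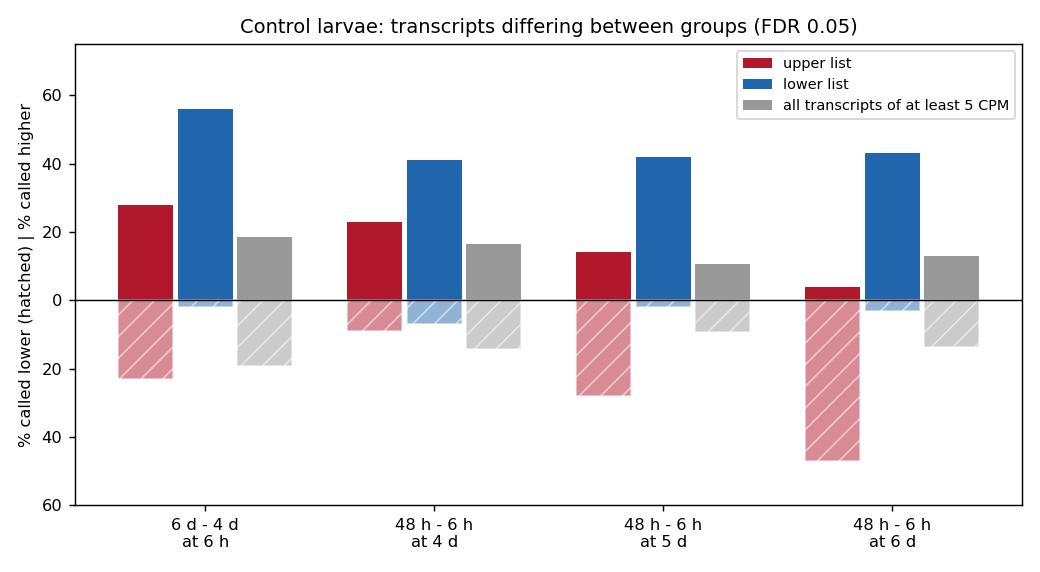
Percent of transcripts called higher (solid bars above 0) and lower (hatched bars below 0) between control groups, for the upper list, the lower list and all 17527 transcripts of at least 5 CPM (edgeR, false discovery rate 0.05). At 6 days, 48 h against 6 h, 47 of 100 upper members are lower and 4 higher, while 43 of 100 lower-list members are higher and 3 lower.

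The low-dose mean of the 6-day, 24 h set was also placed among the control groups. It was nearer to the mean of another control group than to that of its own controls for 52 to 85 upper and 43 to 88 lower members, depending on the group. The lower-list counts were 43 for the 4-day, 6 h controls, 57 for the 6-day, 48 h controls and 88 for the 6-day, 6 h controls, and the upper-list counts for the same groups were 52, 57 and 81. Over all 17527 transcripts the shares were 31.4%, 45.6% and 51.9%. Members were chosen for their distance from their own controls, which favours high counts here, so the shares over all transcripts are no fair measure for them and nothing is read from the difference. Of the 9 control groups, the nearest was that of 5 days and 48 h for 24 upper and 25 lower members and that of 6 days and 6 h for 22 and 33. These are descriptions with no test.

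Few members passed the test at the low dose in the other 8 exposure sets. No member was called in 6 of the 8 sets, the 3 of 4 days, those of 5 days at 6 and 48 h and that of 6 days at 6 h, where 0.0% of all transcripts were called (edgeR quasi-likelihood test within each set, 29375 to 29886 transcripts, false discovery rate 0.05). DESeq2 also called no member there. At an unadjusted p under 0.05 there were 7, 4, 4, 2, 14 and 7 upper members in those sets, in the order given, and 7, 10, 6, 9, 9 and 9 lower members, of 86 to 100 tested. Of the 17527, 5.72%, 8.44%, 2.94%, 1.81%, 9.25% and 3.24% were under that limit in the same sets. At 5 days and 24 h, 3 lower-list members were called, all higher at the low dose and so against the direction of e, with log2 fold changes of 1.67 to 2.25 (background 0.0663% higher). At 6 days and 48 h, the upper member ranked 23 by e was called higher, at 1.29 ± 0.20 (edgeR adjusted p = 0.0082; background 0.00661%). No lower-list member passed there, with 2 at an unadjusted p under 0.05 (2.96% of the 17527) and 0 by DESeq2. No upper member passed at 5 days and 24 h, with 11 unadjusted (10.8%) and 1 by DESeq2.

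As the mean of the 8 sets, the low dose called 0 of 200 members and 0.0% of 33885 transcripts (edgeR, false discovery rate 0.05). At an unadjusted p under 0.05 there were 13 upper and 5 lower members of 100 each, against 6.9% of the 17527, and limma-voom called 0. The median log2 fold change was 0.03 in the upper list and 0.002 in the lower list, against 0.002 over the 17527, and 64 upper and 51 lower members were above 0, against 51.5% of all. Upper members, where e was at least 0.62, had an interquartile range of -0.03 to 0.10. Of the members tested in all 8 sets, 7 of 94 upper members (7.45%) were above 0 in 7 or more sets, against 4.2% of all, and 1 (1.06%) was above 0 in at most 1 set, against 2.98% of all. Of 86 lower members, 2 (2.33%) stood at each of these ends. The low-dose effect at 6 days was larger than that at 4 days for 1 upper member, again the one ranked 23, by 0.80 ± 0.16 (edgeR adjusted p = 0.018; background 0.00295% higher and 0.00295% lower). That call was lost with limma-voom and when the 48 h larvae of either age were left out. Either omission leaves only the 6 h larvae of both ages in this difference.

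By duration, as a mean over the ages, the lower list at the low dose leaned below the controls at 6 h and above them later. As a mean of the 3 ages at 6 h, 13 of 100 lower members were above 0, with a median of -0.23, and none was called (0.0% of all transcripts; 12 unadjusted, against 4.02% of the 17527). At 24 h, in the 4-day and 5-day sets, 82 were above 0, with a median of 0.19, and the member ranked 31 was called higher (background 0.00885%). At 48 h 62 were above 0, with a median of 0.10, and none was called (4 unadjusted, against 4.67%), while 2 upper members were called higher, by 0.33 and 0.75 (background 0.0148% higher and 0.00295% lower). Over all 17527 transcripts the shares above 0 were 49.5%, 58.3% and 49.3%. The lower list's lean at 24 h is thus opposite in sign to e, which came from the same duration at 6 days. As a mean over the ages the high dose, against the same controls, leaned alike: 26, 89 and 80 lower members were above 0 at 6, 24 and 48 h, with medians of -0.09, 0.32 and 0.29. At 6 days and 6 h it did not, with 55 of 100 above 0 (median 0.021), against 20 (median -0.191) at the low dose. The lean is thus not particular to the low dose, and the part of the shared controls in it was not tested. Single ages differed at the low dose and 48 h. There 79, 55 and 41 of 100 lower members were above 0 at 4, 5 and 6 days, with medians of 0.245, 0.085 and -0.058. At 5 days and 48 h the median library of the lower list stood at 4.44 at the low dose and 4.47 in controls. At 5 days and 24 h it stood at 4.08 at the low dose and 3.83 in controls. Among those controls, 7 and 10, which correlated poorly with their group, stood at 3.06 and 3.16. The lower list's members are correlated between libraries, and no test was made on the lean.

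**Figure D4:**
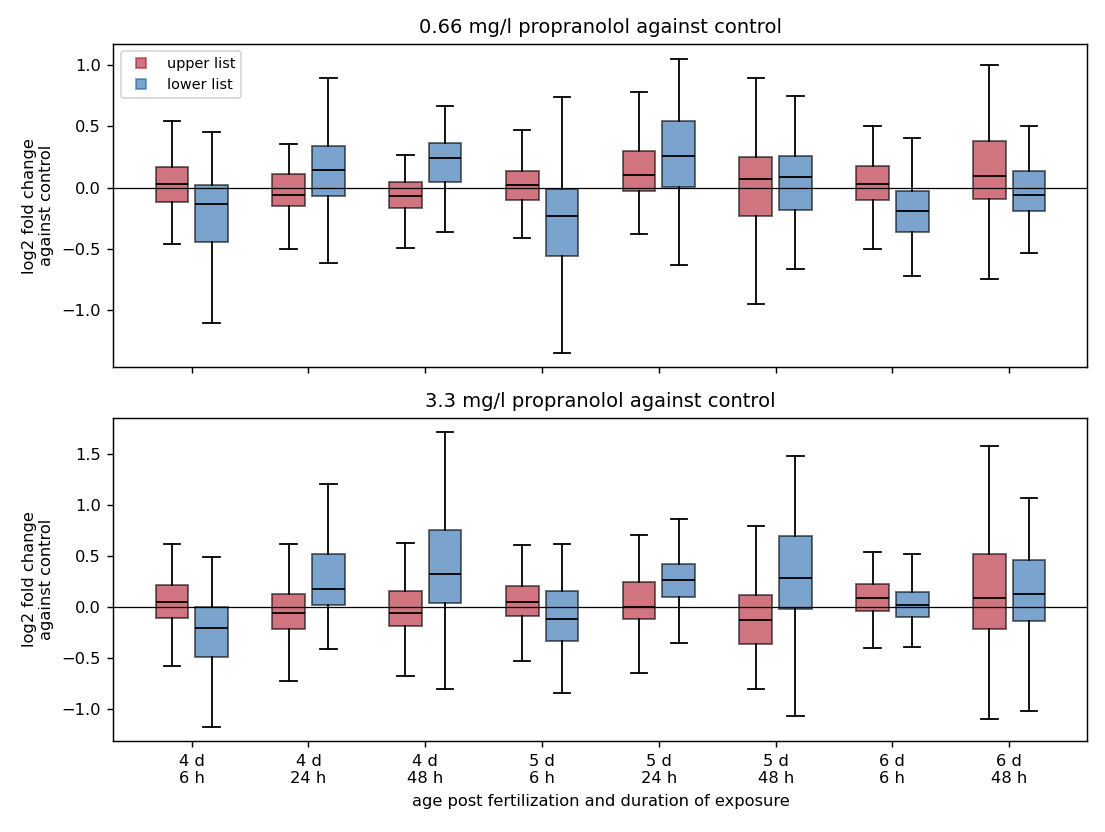
Box plots (median, quartiles and whiskers of 1.5 times the interquartile range, outlying members not drawn) of the members' log2 fold changes against the controls of the same set, for the low and the high dose in the 8 exposure sets the rule did not use. Upper-list medians stay between -0.12 and 0.10, and lower-list medians run from -0.23, under the low dose at 5 days and 6 h, to 0.33, under the high dose at 4 days and 48 h.

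More members were called at the high dose than at the low dose in the other 8 sets, most of them at 48 h, and all lower-list members called in these fits were higher than in the controls. Over all transcripts the high dose likewise called more than the low dose, which called 0.0% as the mean of the 8 sets. As the mean of the 8 sets, 9 upper members were higher and 6 lower, and 12 lower members were higher and 0 lower (edgeR, false discovery rate 0.05), where 3.64% of 33885 transcripts were higher and 1.58% lower, and 5.97% and 2.16% of the 17527 from which members were drawn. The rises in the lower list ranged from 0.17 to 0.55 in log2, and 83 of its members were above 0, with a median of 0.13, against 51.3% and 0.002 over the 17527. In the upper list the median was 0.004 with 52 above 0. The count of 9 upper rises and 6 falls became 7 and 1 without the 5-day, 48 h set, and the 12 lower-list rises became 5 to 6 without the 4-day, 48 h, the 5-day, 24 h or the 6-day, 48 h set. Leaving out the 21 poorly correlated libraries gave 8 upper rises, 12 upper falls and 12 lower-list rises.

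With edgeR the calls came late in the exposure, as they did over all transcripts. At 6 h no member was called in any set (0.0%) or as the mean of 3 ages (0.0059% of all transcripts higher, with 9 upper and 4 lower members at an unadjusted p under 0.05, against 8.02% of the 17527). DESeq2 called no member in any 6 h set. Of the transcripts of at least 5 CPM it called 0.417%, 0.0% and 0.0171% there at 4, 5 and 6 days. At 4 days this was more than its 0.108% after 24 h, so its calls at that age did not all come late. At 24 h, in the 4-day and 5-day sets together, 3 upper and 6 lower members were higher and none was lower (background 0.254% higher and 0.0177% lower, or 0.43% and 0.02% of the 17527), and 89 lower members were above 0, with a median of 0.32. At 4 days 1 high-dose library stood at 4.05 in the lower-list mean, with group medians of 3.03 (high dose) and 2.86 (controls). At 5 days the poorly correlated controls 7 and 10 stood at 3.06 and 3.16, with group medians of 4.07 (high dose) and 3.83 (controls). The part of these libraries in the lean was not tested. At 48 h, 10 upper members were higher and 15 lower, and 19 lower members were higher and 0 lower (background 4.98% and 3.15%, or 7.79% and 4.64% of the 17527). The 10 upper rises were thus near the share over the 17527. The lower-list rises at 48 h ranged from 0.25 to 1.90, with a median of 0.76, and the upper-list falls from -0.64 to -0.19. At 48 h the count of upper members was 13 without the 5-day set and 15 without the 6-day set, against 25 with both, and the lower-list count was 12 without the 5-day set, against 19. Without the 21 poorly correlated libraries 17 lower-list members were higher and 1 lower.

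The difference between durations was tested directly. The high-dose effect at 48 h exceeded that at 6 h for 5 upper and 10 lower members and was below it for 6 upper and 0 lower members (edgeR, false discovery rate 0.05; background 2.0% and 0.817%, or 3.25% and 1.35% of the 17527). In the lower list 87 differences were above 0, with a median of 0.41, against 49.8% of all 17527. The lower-list count fell to 2 to 5 with any 1 of the 6 contributing sets left out. Leaving out either set of an age took that whole age out of the difference, so the 6 refits are not separate checks.

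Within single sets edgeR called at most 9 members of a list at the high dose. At 4 days and 24 h 1 upper member was higher, FMt045902 (background 0.0102% higher and 0.0034% lower), and at 4 days and 48 h 4 upper members were higher and 1 lower and 6 lower-list members were higher (0.854% and 0.136%). At 5 days and 24 h 2 upper and 3 lower-list members were higher (0.0795%), and at 5 days and 48 h 7 upper members were higher and 2 lower and 2 lower-list members were higher (0.947% and 0.274%). At 6 days and 48 h 6 upper members were higher and 2 lower and 4 lower-list members were higher (2.48% and 1.05%). Of the 17527, 0.02% were higher at 4 days and 24 h, and 1.31% higher and 0.15% lower at 4 days and 48 h. At 5 days 0.11% were higher after 24 h, and 1.34% higher and 0.35% lower after 48 h. The 2 lower-list rises at 5 days and 48 h were near that share. At 6 days and 48 h the shares were 3.54% and 1.39%, and the 4 lower-list rises and 2 upper falls there were near them. DESeq2 called more members than edgeR in 3 of these sets by over 1.5 times: 5 upper and 7 lower-list members at 5 days and 24 h (0.371% of the 17527), 15 and 8 at 5 days and 48 h (3.05%), and 9 lower-list members at 6 days and 48 h (6.83%). All these lower-list members were higher, and the 9 were near the share over the 17527. Without the poorly correlated libraries edgeR called 1 of the 3 lower-list members at 5 days and 24 h.

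The doses were also compared with each other without the shared controls. As the mean of the 8 sets, high-dose larvae exceeded low-dose larvae in 5 upper and 7 lower members and were below them in 8 upper and 0 lower members (edgeR, false discovery rate 0.05; background 2.59% and 1.42%, or 4.19% and 2.11% of the 17527). The 5 upper rises were thus near the share over the 17527. The median difference was -0.03 in the upper list and 0.17 in the lower list, and 85 lower members were above 0, against 50.9% of all 17527. Leaving out single sets moved the lower-list count between 3 and 16 and the upper-list count to as few as 5. In the 6-day, 24 h set the lower list was likewise higher at the high dose than at the low dose, a description that the rule favours.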

How the data were processed

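The authors deposited whole-number read counts per transcript for 266 libraries of fathead minnow larvae. Per the labels' protocols, larvae were frozen with a steel bead and lysed, and libraries were made with a Lexogen SENSE mRNA-Seq kit. The reads had been aligned to known transcripts of the species, per the series' design text. The software listed, per the submitters' processing notes, was bcl2fastq 2.19.1, edgeR 3.26.8 and limma 3.40.6. As for aligner, build and counting rule, each is not given in the sources used here. Transcripts that share sequence are therefore uncertain. Every transcript listed had at least 166 counts in all. Of its identifiers, 0 matched the RefSeq gene table.

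CPM used column sums, and levels are log2(CPM + 1). Tests used edgeR 4.0.16 in R 4.3.3 (TMM, filterByExpr, robust quasi-likelihood, Benjamini-Hochberg over all transcripts, false discovery rate 0.05): 3 doses within each set, 24 groups without the 6-day, 24 h set, and the 8 control groups without it. The SE is the log2 fold change divided by the square root of F. Alternatives used RLE factors, no filter, limma-voom (limma 3.58.1), DESeq2 1.42.0, a replicate block, left-out sets and left-out libraries. The fits were tested on simulated data. For the high dose at 5 days and 48 h, 4% of 1.25-fold, 58% of 1.5-fold and 90% of 2-fold changes were recovered, with 11 false calls. For controls at 6 against 4 days the shares were 34%, 84% and 96%, with 7 false calls. Small changes within a single set could thus be missed. The recovery shares were not worked out for the members. Their median SD within control groups was 0.464 (upper list) and 0.701 (lower list), against 0.247 over all 17527. Recovery at the spread of the members was not tested. Python 3.11.15 with NumPy 2.4.6, pandas 2.3.3 and matplotlib 3.10.9 made tables and plots. Named transcripts are, in each list, the member with the largest e and, of the rest, that with the largest called high-dose change over the 8 other sets. Members, lists and tests were chosen with earlier results of these data known.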

Additional observations from a re-analysis of the deposited data

Results flagged for a closer look

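For each list's mean and each named transcript, 162 groups of 8 to 10 libraries were searched for a library standing apart at either end (Dixon's criterion), and 20 were found. The criterion marks about 1 in 20 groups where values are independent and normally distributed. FMt043989 was either nearly silent or present, and the searches reuse the same libraries. The 20 are therefore not set against chance. All values are log2(CPM + 1), and a set is written by its age in days (d) and its duration in hours (h). In the upper list's mean, the lowest libraries were the high-dose replicate 43 at 4 d, 24 h (4.33), at 5 d, 24 h (4.26) and at 5 d, 48 h (3.93), and control 7 at 5 d, 24 h (4.05). The high-dose libraries named share a replicate number. Those at 5 d, 24 h and 5 d, 48 h, and control 7, were among the 21 libraries that correlated poorly with the rest of their group. In the lower list's mean, low-dose replicate 25 at 5 d, 48 h stood at 3.51 and high-dose replicate 37 at 6 d, 6 h at 3.12, both lowest and both among those 21 libraries.

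FMt043989 had 7 such libraries, each the only one of its group under 5 CPM: high-dose replicate 37 (0.28) at 4 d, 6 h, control 4 (1.72) and high-dose replicate 43 (1.38) at 4 d, 24 h, high-dose replicate 31 (1.65) at 4 d, 48 h, control 2 (1.08) and high-dose replicate 37 (0.67) at 5 d, 24 h, and low-dose replicate 20 (1.39) at 5 d, 48 h. FMt045902 was lowest in high-dose replicate 37 at 6 d, 6 h (5.79). FMt028942 was highest in high-dose replicate 34 at 4 d, 24 h (4.03, next 1.07) and lowest in high-dose replicate 37 at 6 d, 48 h (2.83, next 6.26). FMt003922 was highest in control 4 at 5 d, 6 h (5.67) and in high-dose replicate 34 at 5 d, 24 h (6.20), and lowest in low-dose replicate 25 at 5 d, 48 h (3.20) and in high-dose replicate 37 at 6 d, 48 h (4.09).

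Between 48 h and 6 h the effect of the high dose differed for FMt045902 by 2.12 in log2 (edgeR adjusted p = 9.7e-30), and for FMt003922 by 1.22 (edgeR adjusted p = 0.00031). No explanation was tested for any of these values.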

How the results depend on the processing

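Under the alternatives run, 311 recomputed counts stayed within 1.5 times the reported count and 37 did not. The cause was not tested. RLE size factors and no filter on low counts moved none of these counts. The 311 include counts of 0 that stayed 0, as in most low-dose sets and at 6 h. Where nothing was called, the tally is therefore no measure of stability. The members and comparisons rest on 8 to 10 libraries a group, so small changes in variable members could not be seen. The rule chose 64 upper members again with a mean CPM of at least 1 and 63 with group medians, 96 with a pseudocount of 0.5, 70 with one of 5, and 99 with TMM scaling.

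For the high dose as the mean of 8 sets, 8 upper members were called without the 5 d, 48 h set, and 6, 6 and 5 lower members without the 4 d, 48 h, the 5 d, 24 h and the 6 d, 48 h set. High against low, 21 upper members were called without the 21 poorly correlated libraries, 6 without the 5 d, 48 h set and 5 without the 6 d, 48 h set, and 16, 3 and 4 lower members without the 4 d, 6 h, the 5 d, 48 h and the 6 d, 48 h set. At 48 h, 13 and 15 upper members were called without the 5-day and the 6-day set and 12 lower members without the 5-day set, and without the poorly correlated libraries 1 lower member fell beside 17 that rose. For 48 h minus 6 h, 6, 6, 5 and 7 upper members were called without the 5 d, 6 h, the 5 d, 48 h, the 6 d, 6 h and the 6 d, 48 h set. The lower-list counts there were 4, 5, 2, 3, 4 and 5 without the sets of 4, 5 and 6 days at 6 and 48 h in turn. The low dose as the mean of 8 sets called 1 upper member without the 5 d, 6 h set. The 1 upper member called for the low dose at 6 minus 4 days became 0 with limma-voom and without the 4 d, 48 h or the 6 d, 48 h set. For 48 h minus 6 h, leaving out a contributing set also removed the other duration of its age. For 6 minus 4 days it also removed the other age at its duration. Values from such paired omissions, here and below, are therefore not separate checks.

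With DESeq2, the low dose called 1 upper member at 5 d, 24 h (0.2% of the 17527) and 3 at 6 d, 48 h (0.0285%). At the high dose it called 5 upper and 7 lower-list members at 5 d, 24 h (0.371%), 15 and 8 at 5 d, 48 h (3.05%), and 9 lower-list members at 6 d, 48 h (6.83%), the last being near the share. Without the poorly correlated libraries edgeR called 1 of the 3 lower members at 5 d, 24 h (0.0514%).

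Log2 fold changes that changed sign had all missed the threshold. The low-dose mean of FMt028942 was -0.001 without the 4 d, 24 h set, and that of FMt003922 was -0.034 and -0.071 without the 4 d, 48 h and the 5 d, 24 h set. For FMt043989, high against low was -0.10 without the 4 d, 48 h set, 48 h minus 6 h was 0.42 with limma-voom and 0.20 without the poorly correlated libraries, and the low dose at 6 minus 4 days was 0.39 with limma-voom and 1.23 and 1.24 without the 4 d, 6 h and the 6 d, 6 h set. The same difference was -0.013 and -0.017 for FMt045902 without the 4 d, 48 h and the 6 d, 48 h set. For FMt003922 it was -0.12 with limma-voom, -0.075 with the replicate block, and -0.46 and -0.46 without the 4 d, 6 h and the 6 d, 6 h set.

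Samples that share a replicate number did not deviate together in the median: the median correlation of same-numbered controls was 0.0045 over 266 pairs, against 0.0008 for other numbers. It was -0.0053 at the low dose and 0.0023 at the high dose. Single same-numbered pairs ran from -0.44 to 0.49 in controls, -0.54 to 0.47 at the low dose and -0.42 to 0.62 at the high dose. Single replicate numbers were not tested. With the number as a replicate block, 66 upper and 72 lower members were called between control ages (50.8% of the 17527), 48 and 62 between 48 and 6 h (42.2%), and 10 and 9 for the high dose at 48 h minus 6 h (4.42%). The block could not be fitted for a dose against control, where the numbers differ.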
